A study of Homo sapiens with 12 samples.

Results

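Collagen chain genes were followed in COLO858 and MMACSF, a pair of human melanoma cell lines with a mutant BRAF kinase, under vemurafenib, an inhibitor of that kinase. The genes were chosen by name alone, as every row of the expression tables whose symbol is COL, a number, A, and a number. This gave 43 of the 23273 genes listed, of which 11 encode fibrillar collagens, 6 encode the type IV chains of basement membranes, and 26 encode other collagens. Each line was grown with DMSO, the drug's solvent, or with 0.2 μM vemurafenib for 24 or 48 h, with 2 replicates per group and 12 libraries of polyadenylated RNA in all. COLO858 was kept in RPMI 1640 and plated at 20% confluency, and MMACSF was kept in DMEM/F12 and plated at 33%, both with 5% serum and with drug or DMSO added the day after plating. No engineered allele is described for either line, and each is a single line. How long the DMSO cultures ran is not in the sample names, and 1 pair of DMSO libraries per line served as the control for 24 and 48 h, so drug and time in culture cannot be told apart.

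Collagens are secreted proteins built from 3 chains wound into a triple helix. Fibrillar collagens, such as types I, III, V, and XI, assemble into the banded fibrils that give tissue its tensile strength, and types V and XI sit in the core of such fibrils. Type IV collagen forms the sheet-like network of basement membranes, which melanoma cells meet at the boundary of epidermis and dermis. The other collagens associate with fibrils (IX, XVI, XIX, XXII), form beaded filaments (VI) or anchoring fibrils (VII), or carry heparan sulfate or chondroitin sulfate in basement membrane zones (XV, XVIII).

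Levels are given in FPKM as deposited, a measure of fragments relative to transcript length and library size whose exact scaling is not stated, and a gene was counted as measured in a line where its mean was at least 1 FPKM in any of the 3 groups. By this measure 21 collagen genes were measured in COLO858 and 16 in MMACSF, 14 of them in both and 23 in either. Changes are differences of log2(FPKM + 1) ± SE, which understate the change of low genes, and a gene is said to have risen or fallen where limma gave an adjusted p below 0.01 over all genes tested. The separate tables of the lines may have been scaled apart, so lines were compared only by their change against their own DMSO.

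The libraries were first checked against markers. Of 8 melanocyte lineage genes, 6 or 7 reached 1 FPKM in each COLO858 library and 8 in each MMACSF library, and MLANA, a melanocyte antigen, stayed below 1 FPKM in COLO858. The summed lineage markers were higher with drug, at 702 and 717 FPKM under DMSO against 3922 to 4158 FPKM with drug in COLO858 and 11160 and 11370 against 15590 to 17550 FPKM in MMACSF. DCT was the largest part of the COLO858 sum, with means of 267, 2915, and 2150 FPKM over DMSO, 24 h, and 48 h. PMEL was the largest part in MMACSF, at 7944, 10657, and 11552 FPKM. Not every marker rose. From DMSO to 48 h, mean MITF in COLO858 went from 67.7 to 67.3 FPKM, and mean S100B in MMACSF from 819 to 673 FPKM. No keratinocyte, endothelial, or leukocyte marker, of 5 each, reached 1 FPKM in any library. Of 5 fibroblast markers, 2 did in every library, namely LUM and POSTN in COLO858 and LUM and DCN in MMACSF, while FAP and PDGFRA stayed below 1 FPKM throughout. The summed fibroblast markers were 20.3 and 29.0 FPKM under DMSO, 35.4 and 46.4 at 24 h, and 29.0 and 44.4 at 48 h in COLO858. The MMACSF sums were 54.7 and 76.5, then 41.9 and 50.7, then 19.2 and 27.8. The part of either list in the collagen changes below was not tested. In bulk RNA, fewer cells with a transcript and less of it per cell cannot be told apart.

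**Figure D1:**
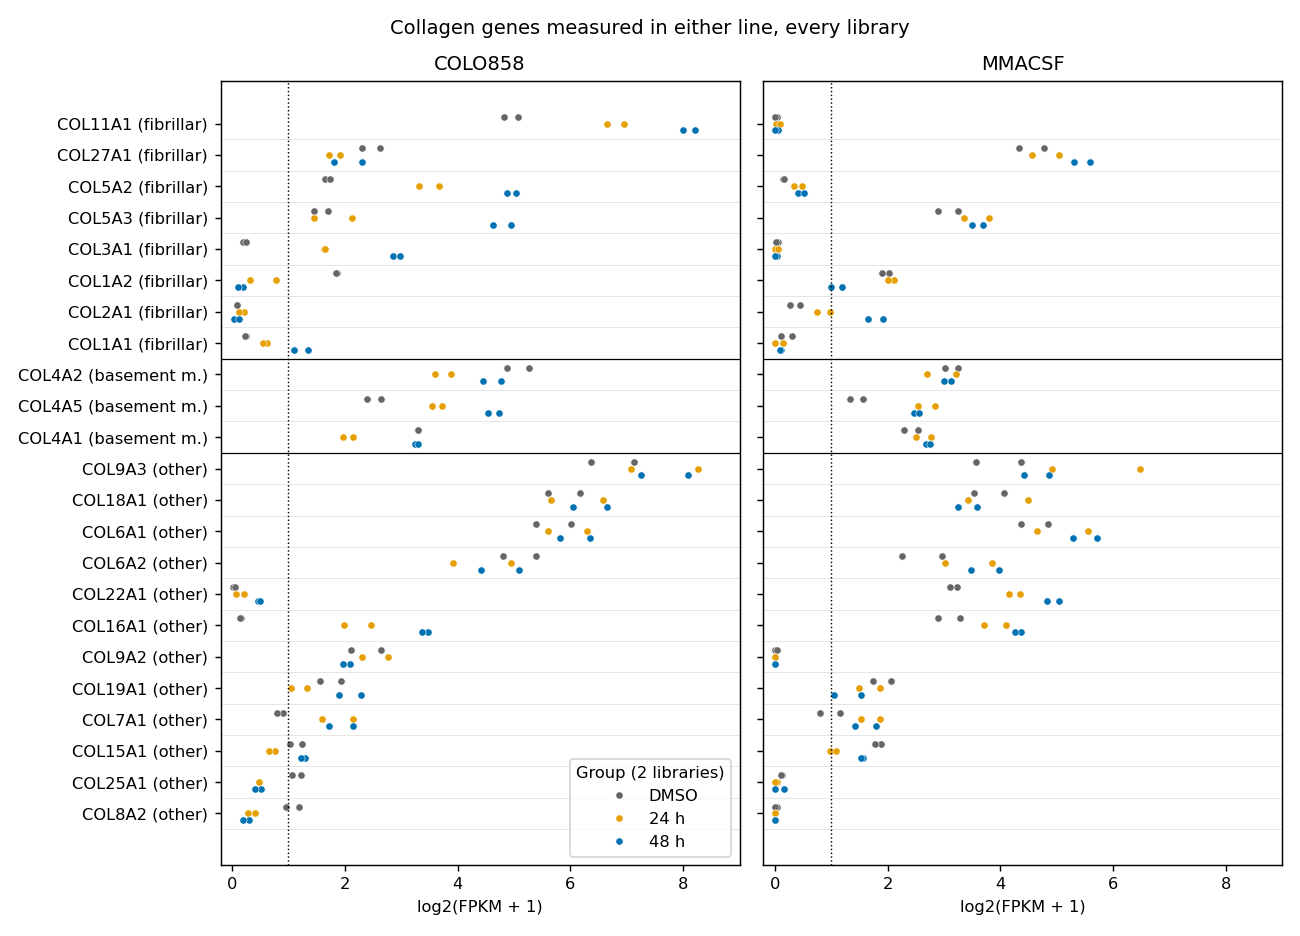
Level of the 23 collagen genes measured in either line, as log2(FPKM + 1) on the horizontal axis, with 1 point per library, coloured by treatment, and the dotted line at 1 FPKM. COL11A1, COL5A2, and COL3A1 rose stepwise in COLO858 and stayed below 1 FPKM in MMACSF, whereas COL22A1 did the reverse, and the points of COL9A3, COL18A1, COL6A1, and COL6A2 spread widely within groups.

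Under DMSO, COL9A3, COL18A1, and COL6A1 were among the 4 highest collagen genes of both lines by mean. COLO858 was led by COL9A3, a chain of the fibril-associated type IX collagen, at 139 and 81.7 FPKM in replicates 1 and 2. COL18A1 at 70.6 and 47.6 FPKM and COL6A1 at 63.7 and 41.2 FPKM came next and overlapped each other, followed by COL6A2 at 41.0 and 27.1 FPKM, which overlapped COL4A2 at 37.7 and 28.5 and COL11A1 at 27.4 and 32.5 FPKM. MMACSF had COL6A1 at 27.6 and 19.7 FPKM and COL27A1 at 26.2 and 19.2 FPKM, which overlapped. Then came COL9A3 at 19.5 and 10.8 FPKM and COL18A1 at 15.7 and 10.6 FPKM, which also overlapped. The sum over the 43 genes was 417 and 295 FPKM under DMSO, 672 and 426 FPKM at 24 h, and 889 and 733 FPKM at 48 h in COLO858. In MMACSF it was 148 and 108, then 279 and 160, then 245 and 201 FPKM. The fibrillar chains of COLO858 summed to 40.2 and 43.6 FPKM under DMSO, 118 and 142 at 24 h, and 326 and 362 at 48 h, and the chains of the other class to 326 and 208, then 526 and 257, then 505 and 315 FPKM. COL11A1 alone made up 28.8% and 40.3% of all collagen FPKM at 48 h, against 6.56% and 11% under DMSO.

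In COLO858, 3 of 7 fibrillar chains had risen at 24 h and 5 of 7 at 48 h, and COL1A2 fell at both times. At 24 h, 5 collagen genes had risen (COL11A1, COL16A1, COL3A1, COL5A2, COL4A5) and 2 had fallen (COL4A1, COL1A2), that is 7 of 21, where 9.82% of the 12696 genes tested had changed, 4.11% upward and 5.71% downward. At 48 h, 7 had risen (these 5 with COL5A3 and COL1A1) and COL1A2 had fallen, 8 of 21 against 9.47% of all genes, 4.74% upward and 4.73% downward. By class, 6 of 7 fibrillar chains had changed at 48 h, 1 of 3 type IV chains, and 1 of 11 others. The median change over the 21 was 0.22 at 24 h and 0.37 at 48 h, beside 0.06 and -0.01 over all genes tested. These counts are descriptions, since COL1A1, COL3A1, COL16A1, and COL7A1 reached 1 FPKM only with drug. COL1A2, COL8A2, COL15A1, and COL25A1 reached it under DMSO but not in every drug group. The COLO858 p-values of all these genes are descriptions too, as each was tested through the groups where it reached the minimum. Both replicates lay above both DMSO libraries for 7 of the 21 at 24 h, below them for 8, and overlapped for 6, and at 48 h the numbers were 9, 6, and 6. Such overlap was not counted over all genes tested, so these numbers describe the members only. Leaving out any 1 of the 4 libraries compared, with a fit that assumes that the lone library varies like the other groups, left 0 calls at 24 h. At 48 h it left 3 calls without DMSO replicate 1, 3 without DMSO replicate 2, 3 without 48 h replicate 1, and 4 without 48 h replicate 2. COL11A1, COL3A1, and COL5A2 were called in all 4 of these fits.

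COL11A1 encodes the α1 chain of type XI collagen, which nucleates thin fibrils in cartilage and is made by few adult tissues. In COLO858 it stood at 27.4 and 32.5 FPKM under DMSO, 98.9 and 123 FPKM at 24 h, and 256 and 295 FPKM at 48 h. The groups did not overlap, and each step was larger than the gap between replicates. The change was 1.85 ± 0.17 at 24 h (limma adjusted p = 0.00273) and 3.16 ± 0.17 at 48 h (adjusted p = 0.000748), with a ratio of mean FPKM at 48 h of 9.19. In MMACSF COL11A1 ranged from 0 to 0.0682 FPKM. COL11A1 lies on the minus strand of chromosome 1 (chr1:103342023-103574428, GRCh37). The 250 bases upstream of its RefSeq start (chr1:103574079-103574328, minus strand, no annotated exon) are shown because this gene had the highest level reached by a collagen that rose. They lie inside the gene bounds just given, which are from GENCODE. Capitals in this and the other upstream sequences mark the words CCAAT and GGGCGG on either strand, and the sequences are from the RefSeq promoter table for GRCh38.p14, placed by exact match in GRCh37:
COL11A1: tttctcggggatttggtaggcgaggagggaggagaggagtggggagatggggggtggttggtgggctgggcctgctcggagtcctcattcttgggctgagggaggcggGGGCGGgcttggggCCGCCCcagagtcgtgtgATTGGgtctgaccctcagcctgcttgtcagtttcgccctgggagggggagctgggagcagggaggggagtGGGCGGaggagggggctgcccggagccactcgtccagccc

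Type V chains moved on different schedules in COLO858. COL5A2, the α2 chain that also joins type XI chains in mixed molecules, was at 2.13 and 2.35 FPKM under DMSO, 8.97 and 11.7 FPKM at 24 h, and 28.3 and 32.0 FPKM at 48 h. Its groups did not overlap, and it rose by 1.80 ± 0.18 at 24 h (limma adjusted p = 0.00303) and 3.26 ± 0.18 at 48 h (adjusted p = 0.000722). COL5A3, a less common type V chain, was at 2.24 and 1.73 FPKM under DMSO, 3.36 and 1.76 FPKM at 24 h, and 29.9 and 23.9 FPKM at 48 h. DMSO and 24 h overlapped, and only the 48 h libraries were high. Its change was 0.22 ± 0.27 at 24 h (adjusted p = 0.577), 3.22 ± 0.27 at 48 h (adjusted p = 0.00204), and 3.0 ± 0.27 between the drug times (adjusted p = 0.00761). COL5A3 was the only collagen gene called between 24 and 48 h in COLO858, 1 of 21 where 1.38% of all genes changed and 1.17% rose. None was called there without any 1 of the 4 libraries. Of the log2 change that COL5A3 had at 48 h, 6.87% was present at 24 h, whereas the share was 58.6% for COL11A1, 55.1% for COL5A2, 52.7% for COL3A1, and 63.2% for COL16A1. These shares depend on the constant of 1 FPKM. With 0.1 FPKM added, the changes at 24 and 48 h were 1.88 and 3.20 for COL11A1 and 2.15 and 3.69 for COL5A2. For COL3A1 they were 3.07 and 4.65, and for COL16A1 4.14 and 5.53. The bases upstream of COL5A3 (chr19:10121181-10121430, minus strand, GRCh37, no annotated exon) are shown for comparison with COL11A1, since these 2 genes rose at different times:
COL5A3: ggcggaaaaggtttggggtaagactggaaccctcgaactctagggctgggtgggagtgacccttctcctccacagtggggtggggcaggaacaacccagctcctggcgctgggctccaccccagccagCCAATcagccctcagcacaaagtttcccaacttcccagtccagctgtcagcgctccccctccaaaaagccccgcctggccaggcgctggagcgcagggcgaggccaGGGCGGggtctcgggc

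In MMACSF COL5A3 was the measured type V chain, with no call in either drug group. It was at 8.53 and 6.47 FPKM under DMSO, 12.8 and 9.24 at 24 h, and 11.9 and 10.3 at 48 h, with changes of 0.50 ± 0.21 and 0.52 ± 0.21 (limma adjusted p = 0.163 and 0.139). COL5A2 ranged from 0.112 to 0.426 FPKM. COL5A1, the most usual partner of COL5A2, was at most 0.153 FPKM in either line.

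**Figure D2:**
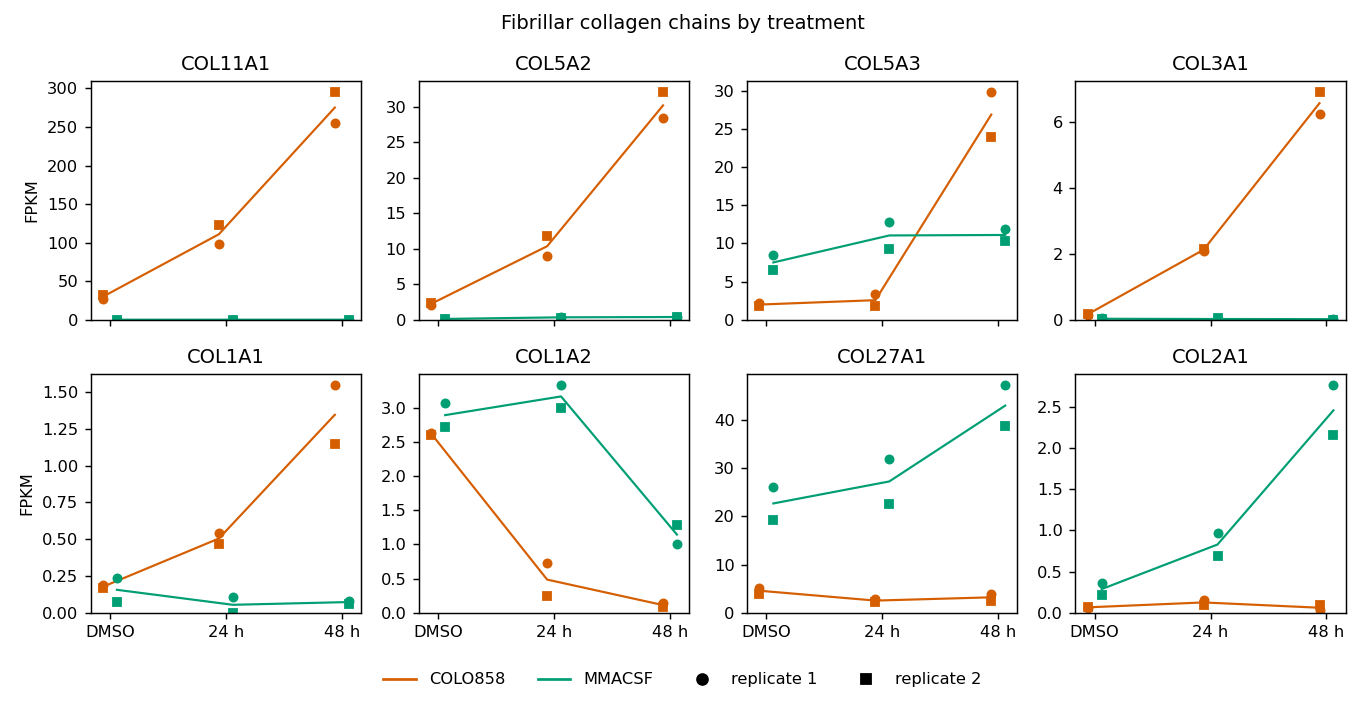
FPKM of the 8 fibrillar chains measured in either line, by treatment, with circles for replicate 1, squares for replicate 2, and lines through group means, and with a separate vertical scale for each gene. COL11A1, COL5A2, COL3A1, and COL1A1 climbed from DMSO to 48 h in COLO858, COL5A3 climbed after 24 h, and COL1A2 went down.

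Chains of types I and III, the main collagens of skin, were low. In COLO858, COL3A1 and COL1A1 reached the minimum only with drug, and COL1A2 only under DMSO. Each was tested through the groups where it was high, so the COLO858 p-values of these genes are descriptions. COL3A1, which forms type III on its own, was at 0.147 and 0.182 FPKM under DMSO, 2.09 and 2.15 FPKM at 24 h, and 6.23 and 6.88 FPKM at 48 h in COLO858. The groups were far apart relative to replicates, and it rose by 1.42 ± 0.13 at 24 h (limma adjusted p = 0.00274) and 2.70 ± 0.13 at 48 h (adjusted p = 0.00056). In MMACSF it ranged from 0 to 0.0435 FPKM. COL1A1, the α1 chain of type I, was at 0.186 and 0.168 FPKM under DMSO, 0.542 and 0.467 FPKM at 24 h, and 1.54 and 1.15 FPKM at 48 h in COLO858. It rose by 0.99 ± 0.15 at 48 h (adjusted p = 0.00935), close to the threshold. COL1A2, the α2 chain, was at 2.63 and 2.61 FPKM under DMSO, 0.725 and 0.247 FPKM at 24 h, and 0.141 and 0.084 FPKM at 48 h. COL1A2 therefore went the other way from COL1A1, and fell by 1.30 at 24 h (adjusted p = 0.00889) and 1.70 at 48 h (adjusted p = 0.00456), with SE 0.19. The ratio of COL1A2 to COL1A1 mean FPKM was 14.8 with DMSO, 0.962 after 24 h, and 0.0837 after 48 h of drug. In MMACSF COL1A2 was at 3.06 and 2.72 FPKM, then 3.33 and 3.0, then 1.00 and 1.28 FPKM, a change of -0.86 ± 0.16 at 48 h (adjusted p = 0.0161) that did not pass the threshold. COL1A1 stayed at or below 0.237 FPKM there.

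Of the other fibrillar chains, COL27A1 was among the leading collagens of MMACSF and COL2A1 was low. COL27A1, a short fibrillar collagen of cartilage, was at 26.2 and 19.2 FPKM under DMSO, 32.0 and 22.6 FPKM at 24 h, and 47.3 and 38.7 FPKM at 48 h in MMACSF. The 48 h libraries lay above the others, yet the change of 0.90 ± 0.24 did not pass the threshold (limma adjusted p = 0.0462). In COLO858 it was at 5.20 and 3.96, then 2.78 and 2.29, then 3.92 and 2.50 FPKM, and no change was called. COL2A1, the main chain of cartilage fibrils, was at 0.363 and 0.211 FPKM under DMSO, 0.968 and 0.688 FPKM at 24 h, and 2.76 and 2.15 FPKM at 48 h in MMACSF, and rose by 1.42 ± 0.18 at 48 h (adjusted p = 0.00635). COL2A1 reached the minimum there only with drug, so this p-value is a description. In COLO858 it stayed at or below 0.16 FPKM.

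Type IV chains did not move as a block. The genes COL4A1 and COL4A2, whose products form the common α1/α1/α2 molecule, lie head to head on chromosome 13. COL4A1 in COLO858 was at 8.86 and 8.83 FPKM under DMSO, 3.42 and 2.91 FPKM at 24 h, and 8.46 and 8.86 FPKM at 48 h. It was low only at 24 h, falling by 1.24 (SE 0.14, limma adjusted p = 0.00428), and at 48 h the difference from DMSO was -0.03 with a 95% interval of -0.38 to 0.33. COL4A2 was at 37.7 and 28.5 FPKM under DMSO, 13.8 and 11.1 FPKM at 24 h, and 26.3 and 20.8 FPKM at 48 h. It showed the same dip, -1.33 ± 0.22, just short of the threshold (adjusted p = 0.012). In MMACSF COL4A1 ranged from 3.88 to 5.85 FPKM and COL4A2 from 5.50 to 8.49 FPKM, with overlapping groups for COL4A2. The ratio of COL4A2 to COL4A1 mean FPKM for DMSO, 24 h, and 48 h was 3.74, 3.94, and 2.71 in the COLO858 line and 1.80, 1.31, and 1.32 in the MMACSF line. The RefSeq starts of these 2 genes are 126 bases apart, and the 100 bases that follow the end of the COL4A1 model (chr13:110959505-110959604, plus strand, GRCh37) are shown because transcription leaves this interval in both directions:
COL4A1-COL4A2: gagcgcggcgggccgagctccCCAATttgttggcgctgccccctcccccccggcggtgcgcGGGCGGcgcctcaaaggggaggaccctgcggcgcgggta

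The GENCODE models of this pair overlap by 1346 bases on opposite strands, and the bases shown lie inside the bounds of the COL4A2 model. As the strand setting of the authors' counting is not given in the sources used here, reads from such overlaps cannot be assigned with certainty, here or at other collagen genes with an antisense neighbour.

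COL4A5, the type IV chain mutated in Alport kidney disease, had 4.24 and 5.21 FPKM in the COLO858 DMSO libraries, 10.6 and 12.3 FPKM at 24 h, and 22.2 and 25.7 FPKM at 48 h, and it rose. No group overlapped another. The change was 1.12 ± 0.17 at 24 h (limma adjusted p = 0.00968) and 2.12 ± 0.17 at 48 h (adjusted p = 0.00182). In MMACSF it was at 1.53 and 1.98 FPKM, then 4.83 and 6.13, then 4.53 and 4.91 FPKM. Both drug groups there lay above DMSO, with changes of 1.23 ± 0.18 and 1.06 ± 0.18 that just missed the threshold (adjusted p = 0.0103 and 0.0126). COL4A6, its head-to-head neighbour on chromosome X, was at most 0.288 FPKM in COLO858 and 0.0292 FPKM in MMACSF. COL4A3 and COL4A4, which join COL4A5 in kidney basement membrane, were at most 0.0332 and 0.131 FPKM. The 250 bases upstream of COL4A5 (chrX:107682818-107683067, plus strand, GRCh37), which lie between the starts of the 2 genes, are shown because the genes on their sides differed in level:
COL4A5: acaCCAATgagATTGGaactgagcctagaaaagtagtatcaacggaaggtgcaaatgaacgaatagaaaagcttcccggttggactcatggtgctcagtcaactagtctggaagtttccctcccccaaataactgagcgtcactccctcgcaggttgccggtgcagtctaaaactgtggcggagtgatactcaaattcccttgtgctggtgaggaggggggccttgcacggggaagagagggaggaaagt

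**Figure D3:**
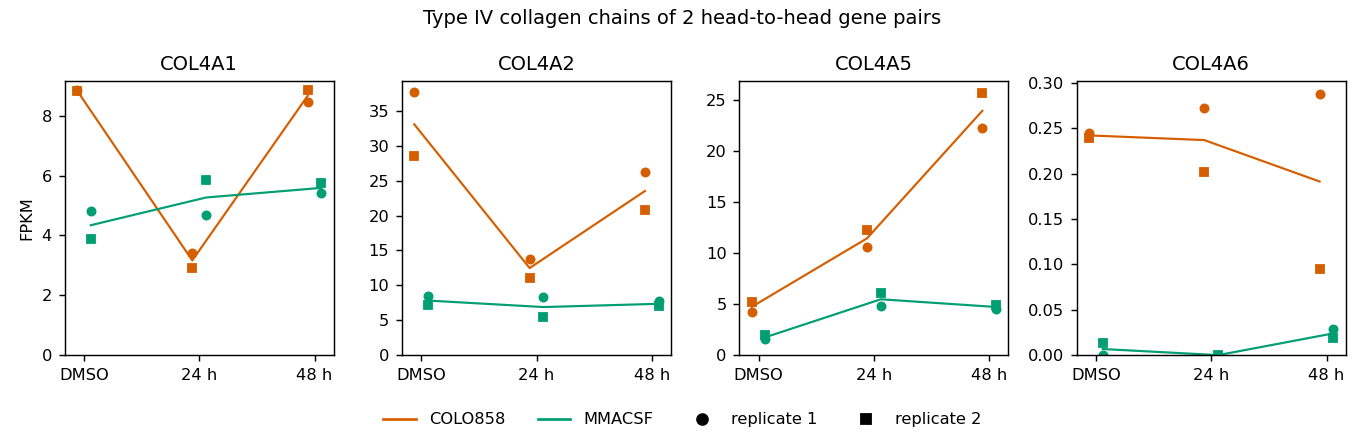
FPKM of the type IV chain genes of the head-to-head pairs COL4A1/COL4A2 and COL4A5/COL4A6 by treatment, with circles for replicate 1, squares for replicate 2, and lines through group means, on a separate scale for each gene. COL4A1 and COL4A2 were low at 24 h in COLO858, COL4A5 rose to 22.2 and 25.7 FPKM at 48 h, and COL4A6 stayed below 0.3 FPKM.

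Promoter windows of 250 bases before to 50 after the start, in the RefSeq table, matched 31 of the 43 genes. Of these 31, CCAAT on either strand was found for 12 genes and GGGCGG for 21. Counted by window, since a gene may have several, they were in 14 and 24 of 43 collagen windows (32.6% and 55.8%), where 34.6% and 45.0% of all 35116 windows hold them. TATAAA was in 8 windows (11.5% of all windows), the AP-1 word TGANTCA in 1, that of COL10A1 (7.71%), and the E-box CACGTG in 0 (7.26%). Both strands were searched, adjoining words may share letters, and a match or its absence describes the letters of these windows only.

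Among the other collagens COL16A1 rose in COLO858 and COL22A1 in MMACSF. COL16A1, a fibril-associated collagen, was at 0.120 and 0.104 FPKM under DMSO, 4.5 and 2.94 FPKM at 24 h, and 10.2 and 9.30 FPKM at 48 h in COLO858. The groups did not overlap, with changes of 2.07 ± 0.20 at 24 h (limma adjusted p = 0.00286) and 3.27 ± 0.20 at 48 h (adjusted p = 0.00102). COL16A1 reached the minimum in COLO858 only with drug, so these p-values are descriptions. In MMACSF it was at 8.76 and 6.40 FPKM, then 16.1 and 12, then 19.7 and 18.2 FPKM, and the change of 1.23 ± 0.21 at 48 h missed the threshold (adjusted p = 0.0131). COL22A1, a collagen of tissue junctions such as that of muscle and tendon, was at 8.40 and 7.62 FPKM under DMSO, 19.3 and 16.8 FPKM at 24 h, and 31.9 and 27.4 FPKM at 48 h in MMACSF. Its groups did not overlap, and it rose by 1.08 ± 0.15 at 24 h (adjusted p = 0.00897) and 1.76 ± 0.15 at 48 h (adjusted p = 0.00191). In COLO858 it was at 0.0112 and 0.0392 FPKM under DMSO and 0.376 and 0.413 FPKM at 48 h, below the minimum.

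The chains COL6A1, COL6A2, COL9A3, and COL18A1 were abundant, with no call in either line. The main fit held no term for the replicate offset given below, so a missing call does not show that a gene was unchanged. In COLO858 COL6A1 was at 63.7 and 41.2, 77.7 and 47.3, and 80.1 and 55.5 FPKM over DMSO, 24 h, and 48 h, and COL6A2 at 41.0 and 27.1, 29.7 and 14.1, and 32.9 and 20.3 FPKM. In MMACSF COL6A1 was at 27.6 and 19.7, 45.7 and 24.1, and 51.1 and 38.1 FPKM, and COL6A2 at 6.77 and 3.80, 13.5 and 7.12, and 14.8 and 10.1 FPKM. In COLO858 the 48 h and DMSO libraries overlapped for both genes, and in MMACSF the change of COL6A2 at 48 h, 1.12 ± 0.38, had an adjusted p of 0.09 (limma). COL9A3 was at 139 and 81.7, 307 and 134, and 269 and 151 FPKM in COLO858, and at 19.5 and 10.8, 88.4 and 29.2, and 28.2 and 20.4 FPKM in MMACSF. The largest estimate was 1.74 ± 0.56 at 24 h in MMACSF (adjusted p = 0.0853). COL18A1, whose C-terminal fragment is endostatin, was at 70.6 and 47.6, 94.2 and 49.3, and 98.9 and 65.4 FPKM in COLO858, and at 15.7 and 10.6, 21.4 and 9.76, and 11 and 8.51 FPKM in MMACSF. The change at 48 h had a 95% interval of -0.53 to 1.45 for COLO858 and of -1.35 to 0.60 for MMACSF.

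Replicate 1 was above replicate 2 in 6 of 6 groups for COL9A3, COL18A1, COL6A1, and COL6A2, by a mean of 0.93, 0.67, 0.60, and 0.72 on the log2(FPKM + 1) scale, and below it in 6 of 6 for COL4A5 and COL19A1, by -0.21 and -0.37. It was also above in 6 of 6 for COL27A1, COL5A3, COL7A1, COL4A2, COL16A1, and COL1A1, by 0.37, 0.36, 0.36, 0.31, 0.25, and 0.12. Over the 23 measured genes this offset went with the G + C content of the longest coding transcript, with Pearson's r 0.802 and Spearman's rho 0.892. The points share the same 12 libraries, and the part of base composition in the spread was not tested.

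**Figure D4:**
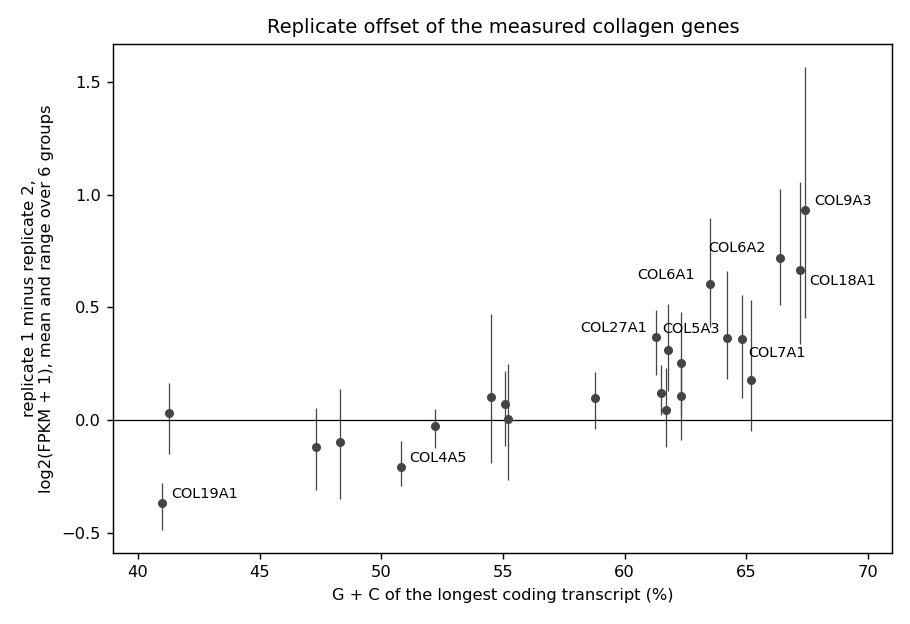
Difference between replicate 1 and replicate 2 in log2(FPKM + 1), as the mean and range over the 6 groups, against the G + C percentage of the longest coding transcript, for the 23 collagen genes measured in either line. The offset lies at -0.37 for COL19A1, with 41.0% G + C, and at 0.93 for COL9A3, with 67.4%.

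The remaining measured genes stayed between 0 and 5.85 FPKM in all libraries. COL7A1, the chain of anchoring fibrils, was at 0.864 and 0.743 FPKM under DMSO and 3.44 and 2.28 at 48 h in COLO858 (change 1.08 ± 0.25, limma adjusted p = 0.0333). COL9A2, the partner of COL9A3, ranged from 2.93 to 5.85 FPKM in COLO858 and from 0 to 0.0327 FPKM in MMACSF. COL15A1, a basement membrane zone collagen, ranged from 0.57 to 1.45 FPKM in COLO858 and from 0.968 to 2.67 FPKM in MMACSF, where its 24 h libraries were lowest (-0.79 ± 0.15, adjusted p = 0.0201). COL19A1 ranged from 1.06 to 3.88 FPKM over both lines. COL8A2 and COL25A1, a corneal and a membrane-bound collagen, were at 1.28 and 0.946 and at 1.10 and 1.33 FPKM under DMSO in COLO858 and below 0.5 FPKM with drug, with changes at 48 h of -0.83 ± 0.15 and -0.69 ± 0.13 (adjusted p = 0.0159 and 0.0204).

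The 20 genes below 1 FPKM in every group were COL4A3, COL4A4, COL4A6, COL5A1, COL6A3, COL6A5, COL6A6, COL8A1, COL9A1, COL10A1, COL11A2, COL12A1, COL13A1, COL14A1, COL17A1, COL20A1, COL21A1, COL23A1, COL24A1, and COL28A1. Just outside the minimum lay COL24A1, a fibrillar chain, with a highest group mean of 0.951 FPKM, and just inside it COL8A2 with 1.12. COL24A1 was at 0.0143 and 0.0255 FPKM under DMSO, 0.237 and 0.272 at 24 h, and 0.594 and 0.722 at 48 h in COLO858, and at 0.0972 and 0.0136, 0.627 and 0.84, and 0.859 and 1.04 FPKM in MMACSF. In both lines all drug libraries lay above DMSO.

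Usual partners of some abundant chains were low. COL6A3, the third chain of type VI, was at most 0.14 FPKM, and COL9A1 at most 0.0873 FPKM. COL11A2, the usual partner of COL11A1, was listed at 0 in all 12 libraries. This is not a measured absence, because 16 of the 19 protein-coding genes within 200 kb of COL11A2 were also listed at 0 in all libraries, among them RPS18, which encodes a ribosomal protein. Of the 43 genes, 7 were below 0.1 FPKM in every library.

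In MMACSF the collagens called were COL22A1 and COL2A1. At 24 h COL22A1 rose, 1 of 16 where 5.83% of 12599 genes had changed, 2.22% upward and 3.6% downward. At 48 h COL22A1 and COL2A1 rose, 2 of 16 against 8.83% of all genes, 3.42% upward and 5.41% downward. The median change over the 16 was 0.49 at 24 h and 0.66 at 48 h, beside 0.07 and 0.06 over all genes tested. COL2A1 and COL7A1 reached the minimum only with drug, so the counts are descriptions. Both 48 h replicates lay above both DMSO libraries for 11 of 16, below for 3, and overlapped for 2. Such overlap was not counted over all genes tested, so these numbers describe the members only. Between the drug times limma called 0 (0.222% of all genes, 0.111% upward and 0.111% downward). At an unadjusted p under 0.05 there were 5, and the share of all genes at that level was not counted. Without any 1 of the 4 libraries compared, 0 collagen genes were called at either time.

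The lines differed in their response. The difference was the COLO858 change minus the MMACSF change, tested as an interaction over 12 libraries. At 24 h, 3 collagens were higher in COLO858 by this measure (COL11A1, COL3A1, COL5A2) and 2 lower (COL4A1, COL1A2), 5 of 23 where 3.71% of 13595 genes differed, 1.78% and 1.93% in the respective directions. At 48 h, 6 were higher (COL11A1, COL5A2, COL3A1, COL5A3, COL16A1, COL1A1) and 2 lower (COL22A1, COL2A1), 8 of 23 against 7.48%, with 4.19% and 3.3%. COL11A1 differed by 3.16 ± 0.20 at 48 h (limma adjusted p = 4.45e-05) and COL2A1 by -1.43 ± 0.18 (adjusted p = 0.00153). The order of the differences depends on the constant, since with 0.1 FPKM added they were 3.17 for COL11A1, 4.81 for COL3A1, and 4.20 for COL16A1. In that setting 2 of the 5 calls at 24 h and 6 of the 8 at 48 h were kept. COL1A1 and COL3A1 entered this fit only through the COLO858 drug groups and COL2A1 only through those of MMACSF, so the counts are descriptions. For COL4A5 the difference at 24 h was -0.11 with a 95% interval of -0.63 to 0.41, and that of 1.07 ± 0.23 at 48 h missed the threshold (adjusted p = 0.0155). For COL4A2 at 24 h the difference was -1.15 ± 0.31 (adjusted p = 0.0602), while for COL4A1 it was -1.47 ± 0.20 (adjusted p = 0.00331). The difference of COL22A1 at 48 h, -1.32, rests on the constant of 1 FPKM, and with 0.1 added in its place it was 0.12 (adjusted p = 0.90), since COL22A1 rose from near 0 in COLO858. With libraries left out in turn, 2 to 5 calls remained at 24 h. There were 2 without COLO858 DMSO replicate 1, COLO858 DMSO replicate 2, MMACSF DMSO replicate 2, or MMACSF 24 h replicate 2, and 3 without COLO858 24 h replicate 2, MMACSF DMSO replicate 1, or MMACSF 24 h replicate 1. At 48 h there were 5 to 7, with 5 without MMACSF 48 h replicate 2.

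**Figure D5:**
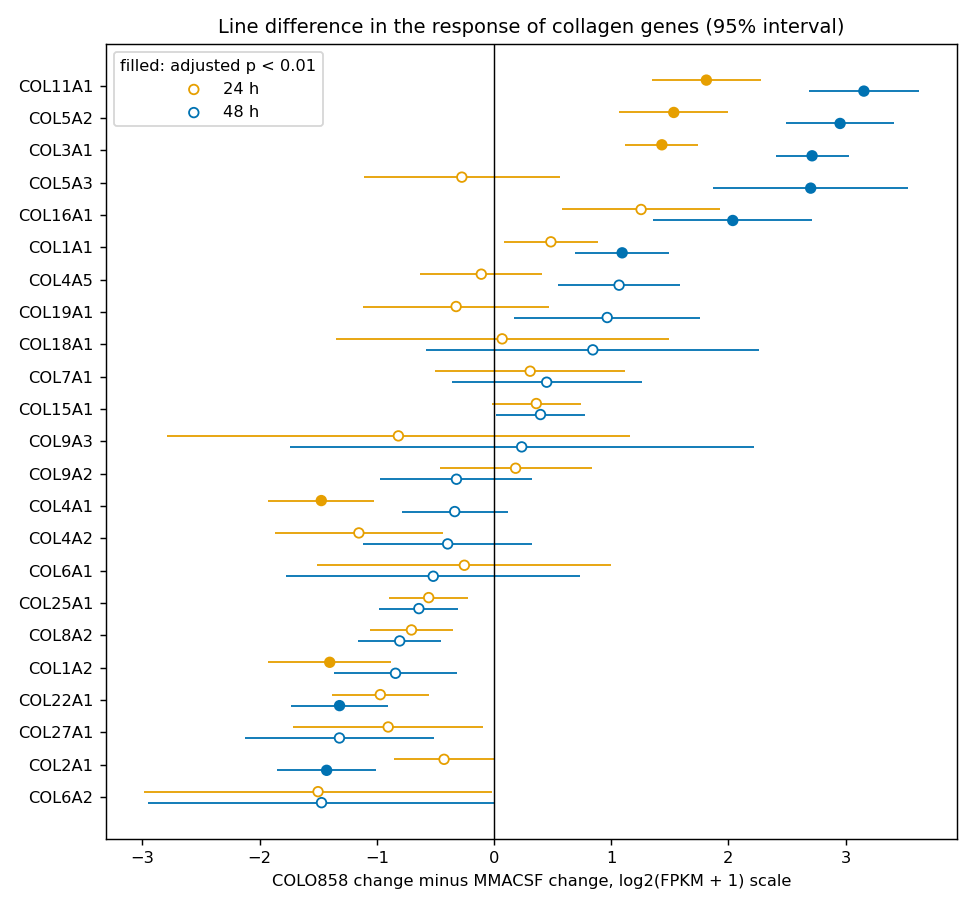
COLO858 change minus MMACSF change against own DMSO, on the log2(FPKM + 1) scale with 95% intervals, for the 23 collagen genes at 24 h (orange) and 48 h (blue), with filled points for an adjusted p below 0.01. COL11A1, COL5A2, COL3A1, and COL5A3 lie near 3 at 48 h, and the intervals of COL9A3, COL6A2, COL18A1, and COL6A1 are widest.

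Genes that modify, process, cross-link, or bind collagen were counted from a list of 51, of which 40 were tested in COLO858 and 32 in MMACSF. In COLO858 1 rose and 6 fell at 24 h, and 1 rose and 5 fell at 48 h, with a median change of -0.21 and -0.19. Over all genes 4.11% and 4.74% rose and 5.71% and 4.73% fell at these times, with medians of 0.06 and -0.01. In MMACSF 1 of 32 was called at each time, upward, where 2.22% and 3.42% of all genes rose, with a median of -0.04 and -0.18 beside 0.07 and 0.06 over all genes. The counts and medians of both lines are descriptions. In COLO858 some listed genes reached the minimum only under DMSO, among them LOXL4 and ITGA11, and LOXL1 and ADAMTS14 only with drug. ADAMTS14 reached it only with drug in MMACSF too. Receptors diverged in COLO858. ITGA1, the α1 integrin that binds type IV and type I collagen, was at 1.43 and 2.05 FPKM under DMSO, 6.44 and 8.57 at 24 h, and 19.2 and 23.7 at 48 h (3.04 ± 0.22, limma adjusted p = 0.00134). ITGA10 was at 7.44 and 8.08, then 1.34 and 1.27, then 0.163 and 0.282 FPKM, and ITGA11, which binds fibrillar collagen, at 2.56 and 2.61, then 0.667 and 0.512, then 0.484 and 0.255 FPKM. Both fell at 24 and 48 h, ITGA10 by 2.84 and ITGA11 by 1.39 at 48 h (limma adjusted p = 0.000552 and 0.0042). ITGA11 reached the minimum only under DMSO, and ITGA10 under DMSO and at 24 h but not at 48 h. The p-values of both are therefore descriptions.

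Among the enzymes, the lysyl oxidase LOXL3, which starts cross-linking, was at 88.7 and 80.2 FPKM under DMSO, 29.9 and 27.3 at 24 h, and 101 and 95.3 at 48 h in COLO858. It fell by 1.53 at 24 h (limma adjusted p = 0.00204) and rose by 1.74 between the drug times (adjusted p = 0.00519), a dip at the same time as that of COL4A1. LOXL4 fell by 2.07, PCOLCE2, an enhancer of propeptide cleavage, by 1.86, and COLGALT1, which glycosylates collagen, by 0.93 at 48 h (adjusted p = 0.00124, 0.00202, and 0.00935). LOXL4 reached the minimum only under DMSO, so its p-value is a description. In MMACSF BMP1, the protease that removes the C-propeptide of fibrillar collagens, was at 12.4 and 10.6 FPKM under DMSO, 40.1 and 30.0 at 24 h, and 36.9 and 29.8 at 48 h, and rose by 1.52 ± 0.20 and 1.46 ± 0.20 (adjusted p = 0.00797 and 0.00719). In COLO858 BMP1 was at 13.8 and 10.4, then 24.6 and 16.0, then 35.6 and 27.0 FPKM. Its change there at 48 h was 1.30, and no rise was called. Of 9 prolyl hydroxylation, 3 chaperone, and 5 export genes, limma called 0 against DMSO in either line. At an unadjusted p under 0.05 there were 0 prolyl hydroxylation genes and 1 chaperone gene at 24 h and 1 of each at 48 h in COLO858, and 1 and 0 at 24 h and 2 and 1 at 48 h in MMACSF, with 0 export genes throughout. The share of all genes at this level was not counted, so these numbers are descriptions.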

How the data were processed

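RNA of 12 libraries was sequenced by the authors after a strand-marking mRNA library kit with ERCC spike-in RNA, mapped to hg19 with TopHat, and quantified with Cuffdiff. The authors deposited FPKM in 1 table per line. Annotation, program versions, strand setting, and library scaling are not given in the sources used here. Depth is unknown, and whole reads could not be recovered. FPKM sums were 670310 to 1013040 in COLO858 and 726083 to 856083 in MMACSF, with 11679 to 11972 genes at 1 FPKM or more per library. Replicates were plated separately per the labels, with no separate passage or day described, so p-values measure only the spread between these plates.

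Each line was fitted with limma 3.58.1 in R 4.3.3 on log2(FPKM + 1) with 3 groups and a mean-variance trend, and the line difference with 6 groups. Tests are two-sided with Benjamini-Hochberg adjustment over every gene whose mean reached 1 FPKM in 1 or more groups, at a threshold of 0.01. Members, classes, pathway and marker lists, and tests were chosen with earlier results of these data known. Collagens past the threshold in any comparison, or with a mean that reached 10 FPKM in a group, are given per library, other measured ones by range and single values, and the rest by name. Pathway genes past the threshold within a line are named. COL24A1 is shown beyond this rule, as the gene just outside the minimum. The genes around COL11A2 were examined after it was seen at 0. Coordinates are from GENCODE v44 on GRCh37. On simulated data 168 of 200 genes changed by a log2 of 2 were recovered in COLO858 at 48 h, 166 in MMACSF, and 125 for the line difference, with 1, 0, and 2 false calls among 12696, 12599, and 13595 genes. The simulated noise was normal and independent between libraries, on genes already past the minimum. It held no offset between replicates, so recovery and false calls under such an offset are unknown. Alternatives were adding 0.1 FPKM, no minimum or a minimum of 10 FPKM, a replicate block, median-ratio rescaling, a threshold of 0.05, and leaving out each library.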

Additional observations from a re-analysis of the deposited data

Results flagged for a closer look

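These results stand out because COLO858 and MMACSF differed in their response to the drug by a direct test, the interaction in limma over 12 libraries. Values are the COLO858 change minus the MMACSF change on the log2(FPKM + 1) scale. At 24 h the difference was 1.81 for COL11A1 (adjusted p = 0.00155), 1.53 for COL5A2 (adjusted p = 0.0031), and 1.43 for COL3A1 (adjusted p = 0.000704), and on the other side -1.47 for COL4A1 (adjusted p = 0.00331) and -1.40 for COL1A2 (adjusted p = 0.00759). At 48 h it was 3.16 for COL11A1, 2.95 for COL5A2, 2.71 for COL3A1, 2.70 for COL5A3, 2.04 for COL16A1, and 1.09 for COL1A1, with adjusted p-values of 4.45e-05, 6.15e-05, 1.35e-05, 0.00185, 0.0026, and 0.00406. In the same test it was -1.43 for COL2A1 (adjusted p = 0.00153) and -1.32 for COL22A1 (adjusted p = 0.00194). COL1A1 and COL3A1 were tested only through the COLO858 drug groups and COL2A1 only through the MMACSF drug groups, where they are high, so their differences are descriptions. COL11A1, COL3A1, COL5A2, and COL1A1 were below 1 FPKM in every MMACSF library, and COL2A1 and COL22A1 in every COLO858 library. The COL22A1 difference turned to 0.12 when 0.1 FPKM was added in place of 1. With 0.1 FPKM, COL5A2 (1.12, limma adjusted p = 0.0762), COL11A1 (1.57, adjusted p = 0.0358), and COL1A2 (-2.47, adjusted p = 0.03) missed the threshold at 24 h. COL1A1 missed it at 48 h (2.86, adjusted p = 0.0229). Of the differences listed, 2 of 5 were kept at 24 h and 6 of 8 at 48 h.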

How the results depend on the processing

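Without the depth of the libraries, the precision of values below about 1 FPKM is unknown. Of 32 calls of single collagens, 25 were kept with 0.1 FPKM added, 6 no longer passed, and COL22A1 turned from -1.32 to 0.12 (adjusted p = 0.90) in the line difference at 48 h. With rescaling 30 of 32 were kept, with no minimum 29 of 32, with a minimum of 10 FPKM 14 of the 17 still tested, and with libraries left out 84 of 180, none of which reversed.

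Counts of collagen genes called are given for COLO858 at 24 h, 48 h, and 48 against 24 h (7, 8, and 1), MMACSF at 24 and 48 h (1 and 2), and the line difference at 24 and 48 h (5 and 8). Those that moved by more than 1.5 times follow. With a threshold of 0.05 they became 11 in COLO858 at 24 h and 7 between the drug times. They became 4 and 6 in MMACSF and 8 and 13 for the line difference, with no share of all genes counted at 0.05. With a minimum of 10 FPKM, which tests fewer genes, they became 2, 4, and 0 in COLO858, 1 in MMACSF at 48 h, and 1 and 5 for the line difference. With no minimum they became 0 between the drug times in COLO858 and 0 in MMACSF at 24 h. With 0.1 FPKM added they became 2 in MMACSF at 24 h and 3 for the line difference at 24 h. Rescaling gave 4 between the drug times in COLO858. The cause was not tested. The share of all genes called was not counted in any of these settings. Leaving out each library gave 0 at 24 h, 3 to 4 at 48 h, and 0 between the drug times in COLO858, 0 throughout in MMACSF, 2 to 5 for the line difference at 24 h, and 5 to 7 at 48 h.

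Replicate numbers are shared by the groups, but nothing states what they pair. With the replicate block the counts became 12 in COLO858 at 24 h, 9 between the drug times, 6 and 8 in MMACSF, and 10 for the line difference at 24 h, and 32 of 32 calls were kept. The share of all genes called with the block was not counted, so these counts describe the members only. Deviations of same-numbered libraries correlated at 0.196 to 0.211 over all genes in COLO858 and 0.0628 to 0.113 in MMACSF, and at 0.829 to 0.879 and 0.807 to 0.885 over the tested collagens.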

Other observations

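Rows with collagen-like names outside the naming rule were low. EMID2, the older symbol of COL26A1, ranged from 0 to 0.148 FPKM in COLO858 and from 0 to 0.256 FPKM in MMACSF. The type VI pseudogene COL6A4P1 was listed at 0 in all libraries, COL6A4P2 was at most 0.0717 and 0.11 FPKM, and the antisense gene COL18A1-AS1 was at most 0.063 FPKM in COLO858 and was listed at 0 in MMACSF.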
